A study of Mus musculus with 12 samples.

Results

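Glycolysis, the fate of pyruvate and the pentose phosphate pathway were followed through 36 genes in mouse embryonic stem cells that lacked or kept the RNA-binding protein gene Pcbp1. The members were chosen by symbol, from the pathway steps they serve and with earlier results of these data known. They are 2 glucose transporters, 9 enzymes of upper and 7 of lower glycolysis and 4 genes that make or carry lactate. Another 6 serve the pyruvate dehydrogenase step and 8 the pentose phosphate pathway. The members took 37 rows of the 55487 genes in the count table. This is because an upstream locus (ENSMUSG00000114515.2) carries the symbol Aldoa as well as the aldolase gene itself (ENSMUSG00000030695.16). That locus is kept apart under the name upstream Aldoa locus, and it passed neither comparison of knockout with control (log2 fold changes of 0.02 and -0.30).

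Polyadenylated RNA came from the mouse embryonic stem cell line E14 Tg2a, in 4 groups of 3 libraries, each replicate an independent clone per the series text. The naive condition was N2B27 medium with LIF and the MEK and GSK3β inhibitors PD0325901 and CHIR99021, on plastic coated with poly-L-ornithine. The epiblast-like cell (EpiLC) condition was N2B27 with bFGF, activin A and KOSR on fibronectin for 48 h, a model of the epiblast just after implantation. The groups are control (WT in the sample labels, Scr in the series text) and Pcbp1 knockout (KO), each in naive and EpiLC culture, so WT and KO share line and media. The labels give neither the position of the edit nor a passage number. Pcbp1 RNA itself measured 475, 418 and 474 CPM (counts scaled to library size with TMM factors) in naive WT against 295, 302 and 303 in naive KO. In EpiLCs it measured 692, 512 and 591 CPM in WT against 250.3, 302 and 265 in KO, so each KO library lay below the WT libraries of its condition while transcripts remained.

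Glycolysis splits glucose into pyruvate in the cytosol. Hexokinase traps the sugar, phosphofructokinase commits it, aldolase cuts it into trioses, and pyruvate kinase ends the chain. Pyruvate then becomes lactate through lactate dehydrogenase, or acetyl-CoA through the mitochondrial pyruvate dehydrogenase complex, which the PDK kinases switch off by phosphorylation. The pentose phosphate pathway branches from glucose-6-phosphate: its oxidative arm makes NADPH, and its other arm exchanges sugars with glycolysis and supplies ribose for nucleotides. The exit from naive pluripotency is known for a shift towards glycolysis and lactate, and many of these enzymes are textbook targets of the hypoxia-inducible factors.

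Promoter sequences are shown first for 5 members that carry the 2 main patterns of the data. Slc16a3, Pdk1, Pfkl and Ldha had the highest log2 fold changes in the WT transition, and Slc2a1 had the lowest in EpiLC KO against WT. Each line gives the 250 bases before the RefSeq transcript start, 5′ to 3′ on the gene's strand, from RefSeq in build GRCm38.p6. Capitals mark ACGTG or GCGTG on either strand, the core letters of the hypoxia response element, also where they are read as CACGT or CACGC.
Slc16a3: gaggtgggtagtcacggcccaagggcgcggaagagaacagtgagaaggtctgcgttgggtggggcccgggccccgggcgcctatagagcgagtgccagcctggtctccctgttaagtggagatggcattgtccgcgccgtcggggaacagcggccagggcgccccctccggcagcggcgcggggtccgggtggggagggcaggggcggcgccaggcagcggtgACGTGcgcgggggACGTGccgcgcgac
Pdk1: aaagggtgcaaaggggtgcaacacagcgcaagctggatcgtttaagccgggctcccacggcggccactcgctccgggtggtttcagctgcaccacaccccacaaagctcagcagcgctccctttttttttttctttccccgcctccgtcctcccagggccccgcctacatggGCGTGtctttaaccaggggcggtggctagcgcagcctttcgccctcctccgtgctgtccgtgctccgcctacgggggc
Pfkl: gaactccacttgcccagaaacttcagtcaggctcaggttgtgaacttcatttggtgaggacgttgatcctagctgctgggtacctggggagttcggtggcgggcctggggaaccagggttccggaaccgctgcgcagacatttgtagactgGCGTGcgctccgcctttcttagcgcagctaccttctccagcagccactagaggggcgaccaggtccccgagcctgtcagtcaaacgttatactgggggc
Ldha: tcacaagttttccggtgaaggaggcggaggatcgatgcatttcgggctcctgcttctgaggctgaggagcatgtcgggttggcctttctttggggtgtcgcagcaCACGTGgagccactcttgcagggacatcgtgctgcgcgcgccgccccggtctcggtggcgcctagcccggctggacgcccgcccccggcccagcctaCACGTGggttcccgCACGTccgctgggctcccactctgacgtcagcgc
Slc2a1: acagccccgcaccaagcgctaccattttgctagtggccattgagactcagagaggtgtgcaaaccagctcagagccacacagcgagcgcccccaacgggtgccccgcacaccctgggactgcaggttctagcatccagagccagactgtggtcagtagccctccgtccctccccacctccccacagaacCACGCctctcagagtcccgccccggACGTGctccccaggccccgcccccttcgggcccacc
The intervals, in the order of the lines, are chr11:120948817-120949066 (plus strand), chr2:71872974-71873223 (plus), chr10:78009808-78010057 (minus), chr7:46845554-46845803 (plus) and chr4:119108495-119108744 (plus). Except for Pdk1, the window lies partly or wholly inside the gene's annotated span, which runs from the earliest of several starts. For Ldha, the bases after this RefSeq start were not found in a transcript of the reference annotation. The Ldha window held 5 matches to ACGTG, counting each strand, with the palindrome CACGTG (an E-box) in 2 places, and the Slc16a3 window held 2. The Slc2a1 window held 1 match to each letter string, and those of Pdk1 and Pfkl held 1 GCGTG each. Ldha and Pdk1 each have a second RefSeq window, not shown. That of Ldha (chr7:46846832-46847081) held 0 ACGTG, 0 CACGTG and 1 GCGTG. That of Pdk1 (chr2:71874654-71874903) held 0 ACGTG and 0 GCGTG. A RefSeq promoter was matched for 35 of the 36 members, 49 windows in all. For 39 of the 49, the next 30 bases lay in a transcript of the gene. ACGTG or GCGTG stood in 75.5% of the 49 windows, covering 30 of the 35 members, against 38.8% of all 32536 windows of that length. Member windows were also richer in G and C, with a median GC content of 60.4% against 52.4% over all windows. The share of windows with the GC box GGGCGG was 53.1% against 33%, with the E-box 8.16% against 6.04%, with TGANNNNGC (the core of the antioxidant response element) 32.7% against 35.3%, and with TGATGNAA (the ATF4 and CEBP composite) 0 against 3.4%. Both strands were searched throughout. These are matches of letters, and whether a factor binds there was not measured.

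Levels are given as RPKM, CPM per kilobase of summed exon length, and log2 fold changes come from edgeR with their standard errors (SE, n = 3 libraries a group). A member rose or fell where its Benjamini-Hochberg adjusted p over the 18134 genes tested was under 0.05. All 36 members passed the filter on low counts. Total counts ran from 27146744 to 42204511 a library, which gave members between 18 reads (Eno2 in an EpiLC KO library) and 193008 (Pkm in an EpiLC WT library). Read pairs that map to several places are left out under the counter's default settings, so levels of genes with near-identical copies (Gapdh, Pgk1, Eno1, Ldha, Pkm, Aldoa, Tpi1 and Pgam1 among them) are uncertain. Strand is not used under those settings either. The exons of Pgls, Rpe, Pdha1, Pkm, G6pdx and Pfkm overlap another gene over 10.2 to 20.6% of their length. That gene is on the other strand for Rpe, Pdha1 and G6pdx, and on the same strand for Pgls, Pkm and Pfkm. The members together took 1.05 to 1.28% of the counts in naive WT and 1.06 to 1.22% in naive KO. In EpiLCs they took 1.79 to 2.34% in WT and 1.5 to 1.6% in KO, so the 2 genotypes overlapped in naive culture and not in EpiLCs. Single libraries stood to one side: naive WT replicate 2 was the lowest of its group for 25 of the 36 members (35.5% of all genes), naive KO replicate 3 for 23 (38.1%), EpiLC KO replicate 1 for 22 (32%) and EpiLC WT replicate 2 for 19 (40.5%). In bulk RNA, fewer cells of a type and less RNA per cell cannot be told apart.

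In control cells the move from naive to EpiLC culture changed most of the pathway, and mostly upwards. Of the 36 members 20 rose and 6 fell, where 26.4% and 26.3% of all genes tested rose and fell, 52.7% together. The members' median log2 fold change was 0.68, beside -0.01 over all genes. Slc16a3 and Pdk1 moved furthest up (6.59 ± 0.245 and 4.25 ± 0.202), and Slc2a3 and Hk1 furthest down (-2.67 ± 0.204 and -2 ± 0.134). The change went through every block. Of the glucose transporters 1 rose and 1 fell, 6 of 7 members of lower glycolysis and 3 of 4 lactate genes rose, and upper glycolysis (5 rose, 2 fell), the pyruvate dehydrogenase step (2 rose, 1 fell) and the pentose phosphate pathway (3 rose, 2 fell) were mixed. Libraries of the 2 conditions did not overlap for 20 members with higher and 7 with lower EpiLC values, against 29.3% and 29.9% of all genes. Of the 26 calls 24 held whichever single library was left out. The calls of Aldoc ended without naive WT replicate 2 (adjusted p = 0.12) or 3 (0.0614), or EpiLC WT replicate 1 (0.0539) or 3 (0.112), and that of Tktl2 without naive WT replicate 2 (0.0579) or EpiLC WT replicate 1 (0.0716).

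Knockout cells made the same move with 17 members up and 10 down, where 27.1% and 28.1% of all genes tested rose and fell, 55.2% together. Their median log2 fold change was 0.26, beside -0.04 over all genes. Higher EpiLC values without overlap were seen for 18 members and lower ones for 13, against 31.4% and 32.9% of all genes. Taldo1 lost its call without either naive WT replicate 2 or 3, naive KO replicate 2 or 3, or EpiLC KO replicate 1 or 2 (adjusted p of 0.0508, 0.0502, 0.11, 0.0935, 0.123 and 0.0545), and the other 26 calls held with any single library left out. With the clone as a block, 3 further calls appeared: Gpi1 in WT (0.23, adjusted p = 0.0184), and Aldoc and Pgd in KO (-0.81, 0.0178, and -0.33, 0.0165). Over all genes the calls went from 4780 to 5173 higher and from 4773 to 5311 lower in WT. In KO they went from 4914 to 5441 higher and from 5096 to 5602 lower.

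**Figure D1:**
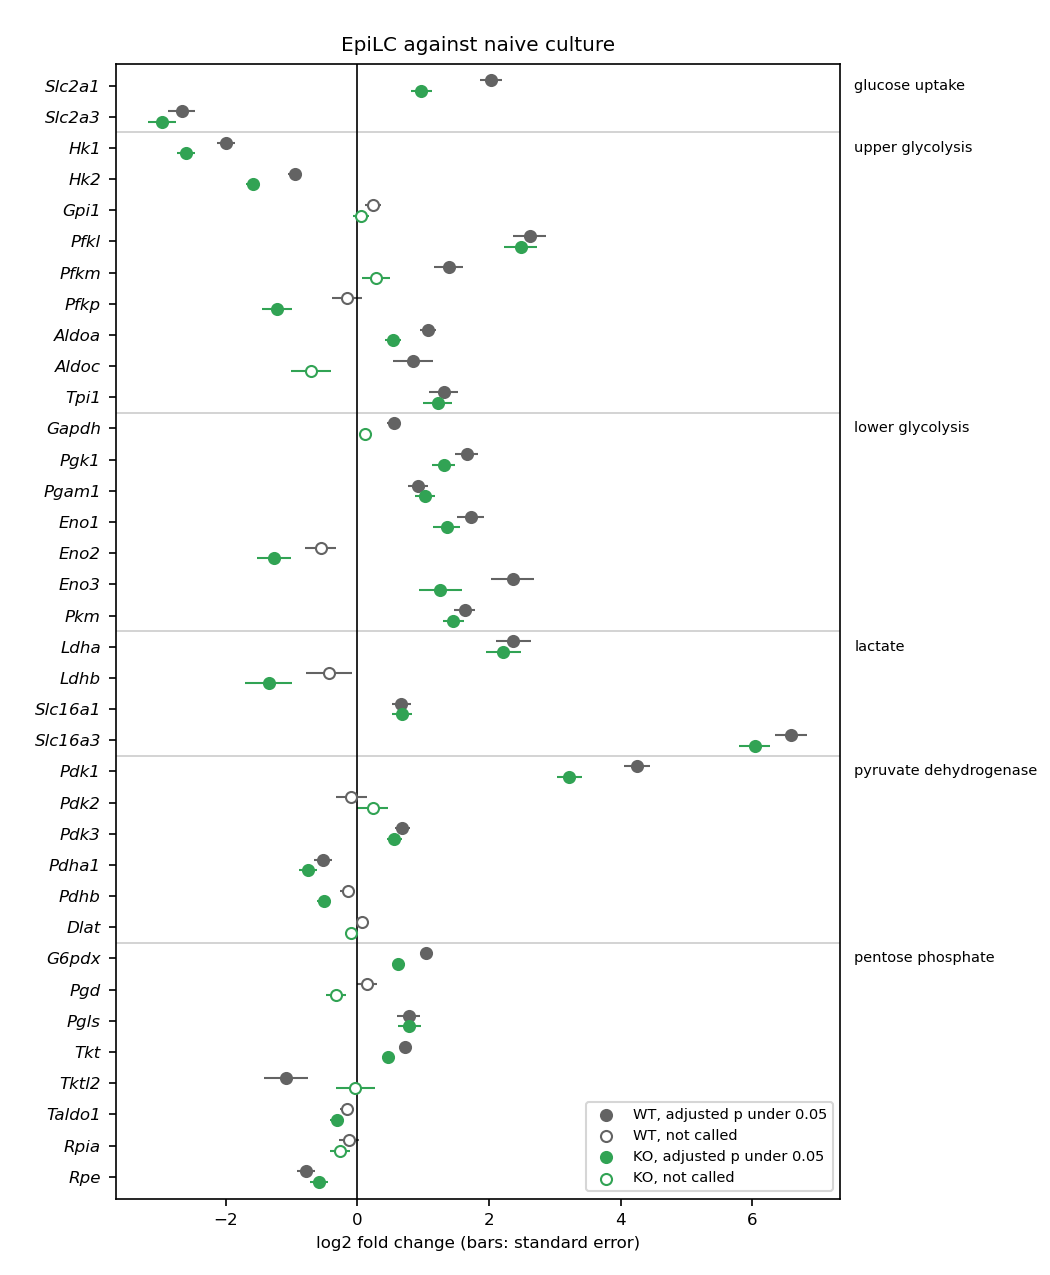
Log2 fold change of the 36 members in EpiLC against naive culture (horizontal axis), in control (WT, grey) and Pcbp1 knockout (KO, green) cells, with bars of 1 standard error and filled points at an adjusted p under 0.05. Slc16a3 and Pdk1 lie furthest right in both genotypes (6.59 and 4.25 in WT, 6.04 and 3.22 in KO), and Slc2a3 and Hk1 furthest left.

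Between genotypes in naive culture, few members passed. Tktl2, a transketolase-like gene, rose, and G6pdx and Pgd, the 2 dehydrogenases of the oxidative pentose phosphate arm, fell. The other 33 members did not pass, so 1 of 36 rose and 2 fell where 4.27% and 4.95% of all genes tested did, 9.23% in either direction. The members' median log2 fold change was -0.17, beside 0 over all genes. Libraries did not overlap for 3 members with higher KO values (Hk2, Pdk1 and Tktl2) and for 10 with lower ones, against 15.1% and 15.3% of all genes. DESeq2 called 1 member higher and 5 lower (G6pdx, Pgd, Slc2a1, Pdk2 and Tkt), where it called 4.84% and 5.88% of its genes. The 3 calls held with any single library left out. Further falls appeared with 1 library left out in 6 of 12 cases. Without naive WT replicate 2 there were 4 falls, with Slc2a1 (-0.63, edgeR adjusted p = 0.0458) and Pdk2 (-0.95, 0.0375), and without EpiLC WT replicate 2 there were 5, with Slc2a1 (0.0272), Tpi1 (0.0361) and Pdk2 (0.0353). Over all genes 701 of 18875 and 1140 of 18869 fell in these 2 fits. There were 3 falls in each of 4 other cases: Tkt passed without naive KO replicate 2 (0.0395), Hk1 without naive KO replicate 3 (0.00266), Slc2a1 without EpiLC WT replicate 3 (0.0247) and Pdk2 without EpiLC KO replicate 3 (0.0475). Over all genes 618 to 1053 fell in these 4 fits. Of the markers of other cell types, the summed level of 14 for primitive and visceral endoderm was 244 to 288 CPM in naive WT and 339 to 591 in naive KO. That of 6 for fibroblasts or feeders was 2.92 to 3.62 and 4.24 to 8.27. Of the genes tested, 1 of 11 and 1 of 4 rose and 0 fell, with median log2 fold changes of -0.01 and -1.26. Means were under 1 CPM for 5 of the 6 fibroblast or feeder markers in both genotypes. The part of these markers in the naive differences was not tested.

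In EpiLCs the knockout libraries were lower across most of the pathway. Of the 36 members 16 fell and 1, Tktl2 again, rose, where 7.86% of all genes tested fell and 7.22% rose, 15.1% together. The members' median log2 fold change was -0.46, beside 0 over all genes, and 33 of the 36 values were negative. Members that fell came from every block: Slc2a1; 6 of 9 in upper glycolysis (Hk1, Hk2, Pfkm, Pfkp, Aldoa, Aldoc); 3 of 7 in lower glycolysis (Pgk1, Eno2, Eno3); Ldhb; Pdhb; and 4 of 8 in the pentose phosphate pathway (G6pdx, Pgd, Tkt, Taldo1). KO libraries lay wholly below WT libraries for 24 members and above for 1, against 17.2% and 16.1% of all genes. DESeq2 called 1 member higher and 18 lower (the same 16 with Tpi1 and Rpia). Of its 21824 genes it called 1716 higher and 1781 lower. Of the 17 calls 11 held whichever library was left out, and the number that fell dropped to 10 without EpiLC KO replicate 1 and rose to 19 without EpiLC WT replicate 2. Over all genes the falls went from 1425 of 18134 to 705 of 18661 and 1525 of 18869 in these 2 fits. This comparison shares its EpiLC WT libraries with the WT transition and its EpiLC KO libraries with the KO transition, so the members' values are given side by side.

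**Figure D2:**
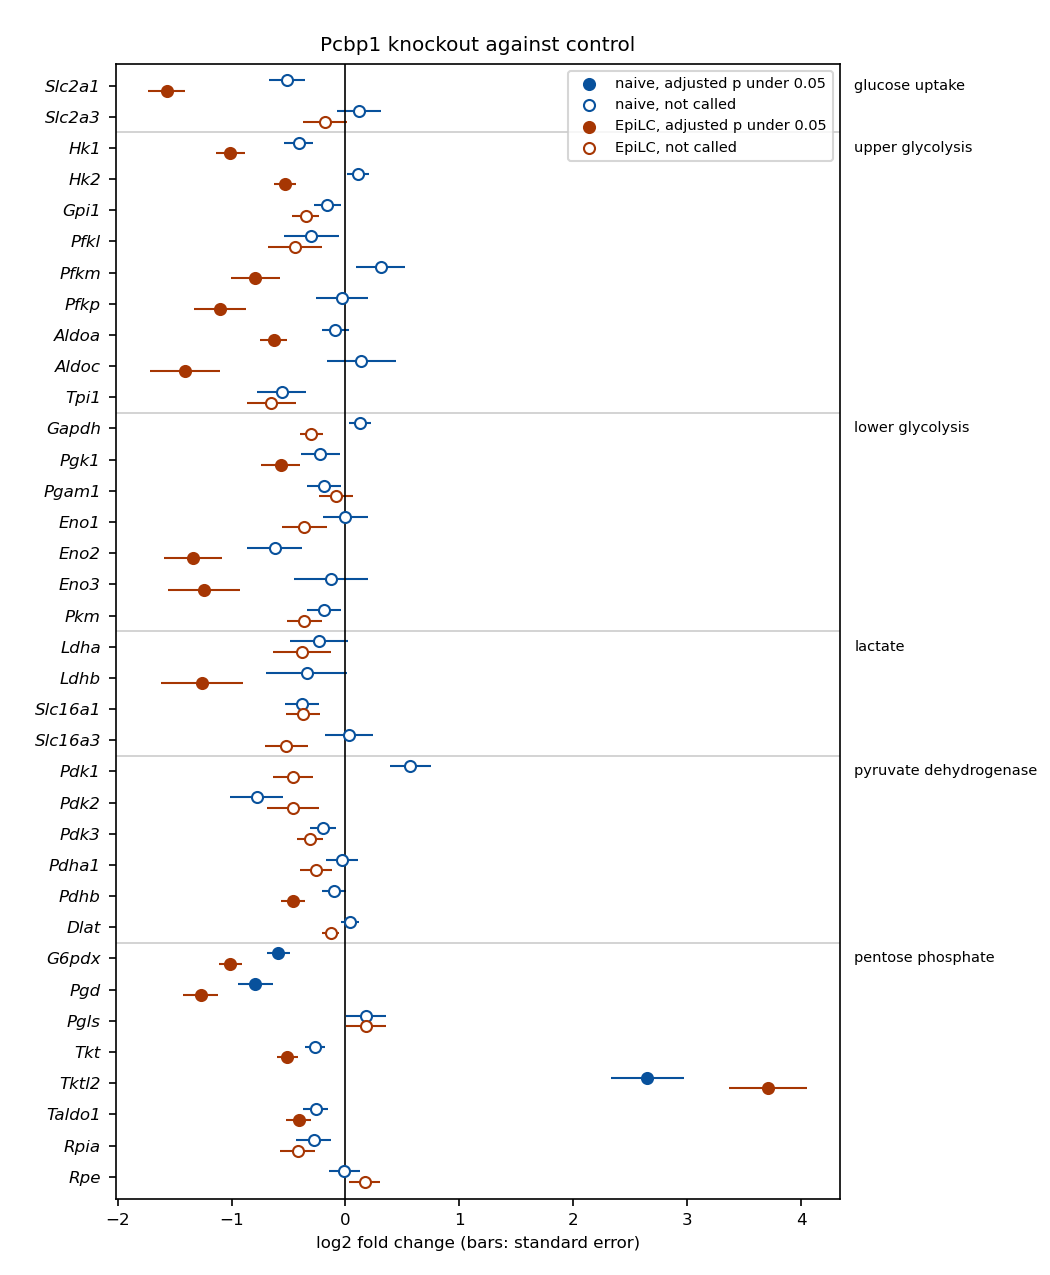
Log2 fold change of the 36 members in Pcbp1 knockout against control (horizontal axis), in naive cells (blue) and EpiLCs (red), with bars of 1 standard error and filled points at an adjusted p under 0.05. In naive cells 3 members are filled; in EpiLCs 17 are, of which Tktl2 lies at 3.71 and the other 16 between -1.57 and -0.41.

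Glucose enters through SLC2A1 (GLUT1), the widespread basal carrier, and SLC2A3 (GLUT3), a carrier of high affinity. Slc2a1 (ENSMUSG00000028645.11, chr4:119108711-119137983, GRCm38) stood at 36, 31 and 39.8 RPKM in naive WT, against 27.4, 26.3 and 21.6 in naive KO. Its levels were 136, 115 and 186 RPKM in EpiLC WT, against 49.1, 49.3 and 49.3 in EpiLC KO. KO libraries were below WT libraries in both conditions, and EpiLC libraries above naive ones in both genotypes. The gene rose by 2.03 ± 0.162 on the log2 scale in the WT transition (edgeR adjusted p = 7.53e-07) and by 0.97 ± 0.158 in the KO transition (0.000209). In EpiLC KO against WT it fell by 1.57 ± 0.16 (edgeR adjusted p = 0.000169), the lowest value of the 36, and all alternatives tried kept this call. The naive difference of -0.51 ± 0.157 did not pass (edgeR adjusted p = 0.0645), but did in DESeq2 (-0.52, 0.0438), in a fit of the naive groups only (-0.50, 0.0489), without the filter on low counts (-0.50, 0.00676) and in 3 of the 12 fits with 1 library left out.

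Slc2a3 went the other way in the transition and did not separate the genotypes. It measured 221, 175 and 226 RPKM in naive WT, against 224, 264 and 189 in naive KO. In EpiLCs it measured 24.5, 44.2 and 29.3 RPKM in WT and 26.9, 31.7 and 27.8 in KO. The fall was 2.67 ± 0.204 in WT and 2.97 ± 0.206 in KO, and the KO differences were 0.12 ± 0.191 in naive cells and -0.18 ± 0.192 in EpiLCs (edgeR adjusted p of 0.753 and 0.571). The ratio of Slc2a1 to Slc2a3, taken within each library from counts per kilobase, was 0.163, 0.177 and 0.177 in naive WT, then 5.57, 2.61 and 6.34 in EpiLC WT. In KO it was 0.122, 0.0995 and 0.114 in naive cells, then 1.82, 1.56 and 1.78 in EpiLCs, so the balance turned over in both genotypes and lay lower in each KO library than in the WT libraries. The mean log2 ratio was lower in KO by -0.62 in naive cells and by -1.40 in EpiLCs. Exact permutation tests of 12 such ratios in 4 contrasts reached p = 0.1, the smallest that 3 against 3 libraries allow, in 31 of 48 comparisons, and 0.155 after adjustment over the 48. These 31 are the comparisons whose libraries did not overlap, and the Slc2a1 to Slc2a3 ratio is among them in all 4 contrasts. Over the principal transcripts its mean log2 value in EpiLC KO was 0.01 in place of 0.78.

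**Figure D3:**
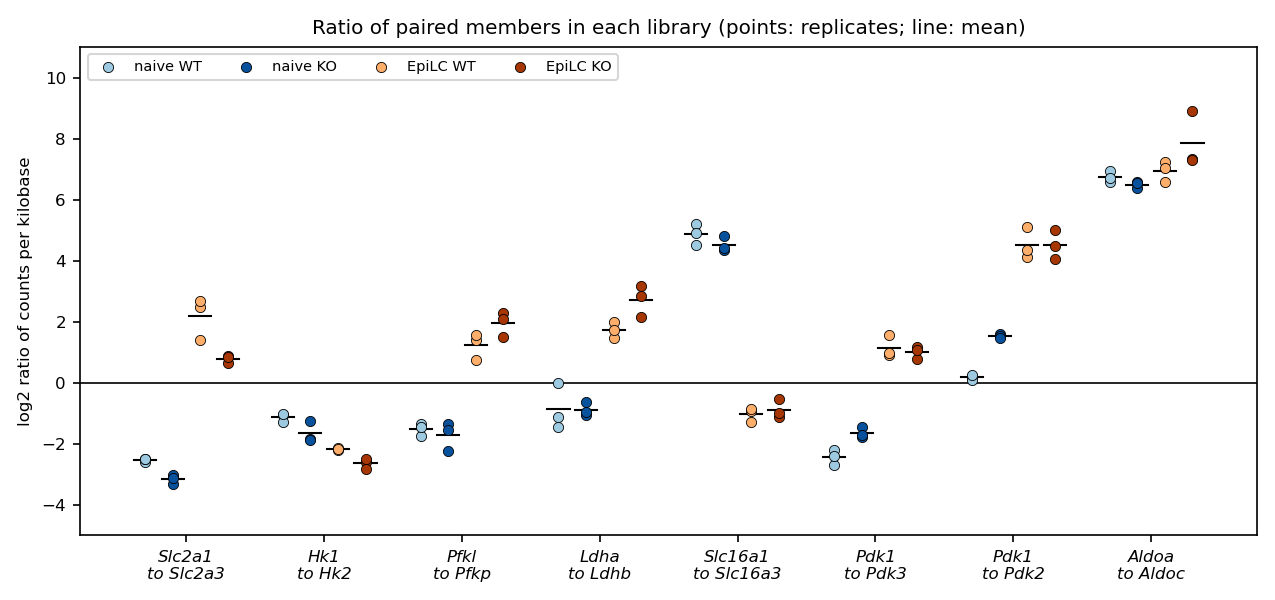
Log2 ratio of counts per kilobase of paired members in each library (vertical axis; points are the 3 libraries of a group, lines their means). The Slc2a1 to Slc2a3, Pfkl to Pfkp, Ldha to Ldhb and Pdk1 to Pdk3 ratios cross from below 0 in naive cells to above 0 in EpiLCs, and the Slc16a1 to Slc16a3 ratio crosses the other way.

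Hexokinases open upper glycolysis. Hk1 (ENSMUSG00000037012.18, chr10:62268855-62379908) gave 37.5, 35 and 41 RPKM in naive WT, against 24, 25.8 and 35.8 in naive KO. In EpiLCs it gave 9.15, 9.46 and 9.74 RPKM in WT and 4.6, 4.61 and 4.86 in KO, with little spread inside either group and no overlap between them. Hk1 fell by 2 ± 0.134 in the WT transition, by 2.61 ± 0.137 in the KO transition and by 1.01 ± 0.131 in EpiLC KO against WT (edgeR adjusted p = 0.000591). In naive cells the difference was -0.41 ± 0.129 (edgeR adjusted p = 0.0692), and it passed without naive KO replicate 3 (-0.64, adjusted p = 0.00266). It also passed without the filter on low counts (-0.40, 0.0364) and with the replicate number as a block (-0.42, 0.0383).

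Hk2, the inducible hexokinase, was the more abundant of the pair per kilobase in each group. Its naive levels were 78.5, 85.6 and 84.2 RPKM in WT and 87.5, 94.3 and 86.1 in KO, with the KO libraries just above the WT ones. In EpiLCs they were 42.3, 42.1 and 43.7 RPKM in WT and 28.2, 26.1 and 34.5 in KO. Hk2 fell by 0.95 ± 0.1 in the WT transition, by 1.59 ± 0.102 in the KO transition and by 0.53 ± 0.0997 in EpiLC KO against WT (edgeR adjusted p = 0.00475). The naive difference of 0.11 ± 0.0992 did not pass (0.551). The Hk1 to Hk2 ratio had mean log2 values of -1.13 ± 0.14 in naive WT, -1.67 ± 0.35 in naive KO, -2.18 ± 0.03 in EpiLC WT and -2.65 ± 0.17 in EpiLC KO (SD, n = 3), and EpiLC KO lay wholly below EpiLC WT. With the length of the principal transcript in place of all exons the 4 means were -0.10, -0.63, -1.14 and -1.61, so the level of a ratio depends on the length chosen while its differences do not.

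Phosphofructokinase is a tetramer of liver (Pfkl), muscle (Pfkm) and platelet (Pfkp) type subunits, and the 3 genes behaved differently. Pfkl (chr10:77986947-78010083) rose from 11.3, 6.91 and 9.68 RPKM in naive WT to 71.9, 38.2 and 60.9 in EpiLC WT, by 2.62 ± 0.252 on the log2 scale. It rose in KO too, from 9.51, 7.44 and 5.67 to 43.6, 45.1 and 37.6 RPKM, by 2.48 ± 0.251. Neither KO difference passed (-0.30 ± 0.24 and -0.44 ± 0.237, edgeR adjusted p of 0.492 and 0.237).

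Pfkm rose in the WT transition, from 22.6, 25.5 and 20.1 to 49.3, 83.1 and 46.1 RPKM (1.39 ± 0.22). In KO it went from 28.4, 34.7 and 21.8 to 33, 38.8 and 31.6 RPKM, a value of 0.28 ± 0.216 that did not pass (edgeR adjusted p = 0.283). EpiLC WT replicate 2 was the high one of its group. EpiLC KO against WT gave a fall of 0.79 ± 0.217 (edgeR adjusted p = 0.0293), which ended without EpiLC WT replicate 2 (-0.47, adjusted p = 0.0759) or KO replicate 1 (0.0968) or 3 (0.0913). Scaling by library size alone, a fit of the EpiLC groups only and removal of a trend with GC content also ended it (0.053, 0.0587 and 0.0708). In naive cells the KO difference was 0.31 ± 0.217 (0.415).

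Pfkp (chr13:6579768-6648777) was lowest in EpiLC KO. Its naive levels were 29, 23.4 and 26.5 RPKM in WT and 24.5, 35.7 and 16.8 in KO, and EpiLC levels 27, 23.1 and 20.7 in WT and 9.02, 10.6 and 13.5 in KO. It fell by 1.22 ± 0.229 in the KO transition (edgeR adjusted p = 0.000615) and by 1.10 ± 0.228 in EpiLC KO against WT (0.0079), while the WT transition gave -0.16 ± 0.226 and naive KO against WT -0.03 ± 0.225. The difference between the 2 transitions, the interaction, was -1.06 ± 0.32 and did not pass (0.187). The Pfkl to Pfkp ratio was 0.389, 0.296 and 0.365 in naive WT, then 2.67, 1.66 and 2.95 in EpiLC WT, and 0.388, 0.208 and 0.338 and then 4.83, 4.26 and 2.79 in KO, with the genotypes overlapping in both conditions. For Pfkl to Pfkm the mean log2 ratio in EpiLC WT was -0.06 over all exons and 0.57 over the principal transcripts, so which of the 2 was higher per kilobase is not settled.

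Aldolase A is the main glycolytic aldolase, and aldolase C the form of brain. Aldoa (chr7:126795234-126800751) measured 442, 359 and 443 RPKM in naive WT, 388, 407 and 371 in naive KO, 1001, 790.3 and 822 in EpiLC WT, against 491, 569.7 and 634 in EpiLC KO. It rose in both transitions (1.07 ± 0.121 and 0.54 ± 0.12) and fell by 0.63 ± 0.121 in EpiLC KO against WT (edgeR adjusted p = 0.00545). Naive KO differed by -0.09 ± 0.12 (0.695). The 50 tested genes around Aldoa had median log2 differences of -0.34, -0.30 and -0.41 from EpiLC WT in the 3 EpiLC KO libraries, and -0.41 was the lowest such value of any member. Whether the whole stretch of chromosome 7 moved was not tested.

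Aldoc (chr11:78322968-78327781) stood far below it at 4.64, 2.91 and 4.23 RPKM in naive WT, against 4.68, 4.32 and 3.99 in naive KO. In EpiLCs it gave 6.71, 6.01 and 8.53 RPKM in WT and 3.03, 3.63 and 1.31 in KO, with KO replicate 3 well under the other two. The gene rose by 0.85 ± 0.303 in the WT transition and fell by 1.41 ± 0.307 in EpiLC KO against WT (edgeR adjusted p = 0.00983); naive KO differed by 0.14 ± 0.302 (0.827). The Aldoa to Aldoc ratio was 149, 131 and 96.4 in EpiLC WT, against 162, 157 and 482 in EpiLC KO. In naive cells it was 95, 123 and 105 in WT and 82.9, 94.2 and 93 in KO, so KO lay above WT in one condition and below it in the other.

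The remaining members of upper glycolysis did not pass in either comparison of genotypes. Gpi1, glucose-6-phosphate isomerase, had KO differences of -0.16 ± 0.12 in naive cells and -0.35 ± 0.12 in EpiLCs (edgeR adjusted p of 0.444 and 0.0651). Tpi1, triosephosphate isomerase, rose in both transitions (1.31 ± 0.217 and 1.22 ± 0.216), and its KO differences were -0.56 ± 0.214 and -0.65 ± 0.214 (0.131 and 0.0607). Naive Tpi1 levels were 135, 85.7 and 111 RPKM in WT and 72.8, 84.6 and 68.2 in KO, without overlap. In EpiLCs they were 359.9, 181 and 284 in WT and 166, 191 and 169.6 in KO, and EpiLC WT replicate 2 lay inside the KO range. Without that library both genes passed in EpiLCs (Gpi1 -0.48, edgeR adjusted p = 0.0106, and Tpi1 -0.88, 0.00571). Both also passed there without the filter on low counts (-0.37, 0.02, and -0.66, 0.000344). Tpi1 passed in EpiLCs in DESeq2 as well (-0.64, 0.0476), and in edgeR without naive WT replicate 2 (-0.63, 0.0492).

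Lower glycolysis turns triose phosphate into pyruvate and gives back ATP. Per kilobase of summed exon length, Pkm, pyruvate kinase M, and Aldoa were the 2 highest members in EpiLC WT (845 ± 172 and 871 ± 114 RPKM, SD, n = 3). They lay within the spread of each other, followed by Gapdh at 636 ± 81.6. Principal transcripts of Pkm, Aldoa and Gapdh are 2432, 1511 and 1420 bp long, against summed exons of 5001, 2911 and 4133 bp. Their order therefore depends on the length chosen. Pkm rose by 1.63 ± 0.155 in WT and 1.46 ± 0.154 in KO, from 332, 218 and 271 RPKM in naive WT to 1037, 707 and 790.1 in EpiLC WT. EpiLC KO had 639.9, 642 and 689 RPKM, all below the WT libraries, and the difference of -0.36 ± 0.151 did not pass (edgeR adjusted p = 0.128). Counts per gene do not tell the M1 from the M2 splice form.

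Gapdh, glyceraldehyde-3-phosphate dehydrogenase and a common reference gene, was not level across these samples. It rose by 0.55 ± 0.0987 in the WT transition (edgeR adjusted p = 0.000497), while the KO transition gave 0.12 ± 0.0984 (0.337). EpiLC levels were 728, 571 and 609.8 RPKM in WT and 510.1, 524 and 511 in KO, without overlap, and the difference of -0.30 ± 0.0985 narrowly missed the threshold (0.0553). It passed without naive WT replicate 2 (-0.29, 0.0445) or EpiLC WT replicate 2 (-0.38, 0.0247), and without the filter on low counts (-0.32, 0.0229). In naive cells KO differed by 0.13 ± 0.0984 (0.471).

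Pgk1, phosphoglycerate kinase, which makes the first ATP of the payoff phase, rose from 51.6, 42.2 and 53.1 RPKM in naive WT to 183, 116 and 167 in EpiLC WT (1.66 ± 0.173). Naive KO had 43.1, 48.6 and 34 RPKM and EpiLC KO 95.8, 105 and 112 (a rise of 1.31 ± 0.172). The fall in EpiLC KO against WT was 0.57 ± 0.169 (edgeR adjusted p = 0.0389). This call ended when any 1 of 8 libraries was left out: naive WT replicate 1 (adjusted p = 0.053) or 3 (0.0529), naive KO replicate 1 (0.0586), EpiLC WT replicate 1 (0.135) or 3 (0.106), and EpiLC KO replicate 1 (0.136), 2 (0.0879) or 3 (0.0663). It also ended under scaling by library size, in a fit of the EpiLC groups only and with the replicate number as a block (0.065, 0.0591 and 0.059). In naive cells the difference was -0.22 ± 0.17 (0.462).

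Enolase makes phosphoenolpyruvate, and its 3 genes among the members differ by orders of level. Eno1, the ubiquitous form, had 112, 71 and 78.2 RPKM in naive WT, 87.7, 88.8 and 85.4 in naive KO, 382, 217 and 262 in EpiLC WT, against 195, 219 and 258 in EpiLC KO. It rose in both transitions (1.72 ± 0.207 and 1.36 ± 0.204), and its KO differences were 0 ± 0.201 and -0.36 ± 0.201 (edgeR adjusted p of 1 and 0.254). Eno1b, a retrotransposed copy of Eno1 outside the 36, went from 77.1 to 256 CPM in the WT transition (1.73 ± 0.221) and from 77.2 to 203 in the KO transition (1.39 ± 0.218), and reads of the 2 genes may be hard to tell apart. Pgam1, phosphoglycerate mutase, likewise rose in both (0.92 ± 0.152 and 1.03 ± 0.152) with KO differences of -0.19 ± 0.151 and -0.08 ± 0.15 (0.491 and 0.768).

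Eno2, the neuronal form (chr6:124760053-124769673), had few reads, 81, 85 and 82 reads in naive WT, 55, 64 and 47 in naive KO, 68, 40 and 53 in EpiLC WT, against 33, 28 and 18 in EpiLC KO. Scaled per kilobase, EpiLC KO (0.142 ± 0.0297 RPKM) lay below EpiLC WT (0.36 ± 0.0375, SD, n = 3) in each library, a fall of 1.34 ± 0.256 (edgeR adjusted p = 0.00528). The naive difference was -0.62 ± 0.242 (0.135), the WT transition gave -0.56 ± 0.242 (0.0705) and Eno2 fell in the KO transition (1.27 ± 0.255 lower, 0.001). The Eno1 to Eno2 ratio did not overlap in any of the 4 contrasts, with mean log2 values of 7.33, 7.98, 9.59 and 10.61 in naive WT and KO and in EpiLC WT and KO.

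Eno3, the muscle form (chr11:70657202-70662513), had 3.92, 3.28 and 3.92 RPKM in naive WT, against 3.18, 4.73 and 2.26 in naive KO. EpiLC WT had 13.6, 29.6 and 14.2 RPKM, with replicate 2 high, and EpiLC KO 6.46, 9.97 and 7.92. Eno3 rose in both transitions (2.36 ± 0.332 and 1.26 ± 0.324) and fell by 1.24 ± 0.318 in EpiLC KO against WT (edgeR adjusted p = 0.0221). That call ended without EpiLC WT replicate 2 (-0.78, adjusted p = 0.0642) or KO replicate 1 (0.0927) or 3 (0.0649). In naive cells the difference was -0.13 ± 0.325 (0.858).

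Lactate dehydrogenase exists as A subunits, which favour making lactate, and B subunits, which favour using it. Ldha (ENSMUSG00000063229.15) measured 142, 101 and 109 RPKM in naive WT, then 849.8, 351 and 613 in EpiLC WT, and 111, 113 and 76.1 and then 489, 480.0 and 428 in KO. It rose by 2.37 ± 0.267 in WT and 2.22 ± 0.266 in KO (edgeR adjusted p of 1.27e-05 and 1.8e-05). The KO differences of -0.23 ± 0.255 and -0.38 ± 0.254 did not pass (0.645 and 0.351), and EpiLC WT replicate 2, the lowest of its group, lay below the KO libraries. Without that library the EpiLC difference was -0.65 and passed (0.0362).

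Ldhb (ENSMUSG00000030246.12, chr6:142490249-142507957) had 307, 102 and 297 RPKM in naive WT, where replicate 2 was low, and 172, 236 and 149.7 in naive KO. EpiLC levels were 212, 128 and 185 RPKM in WT and 53.9, 68.1 and 97.2 in KO. Ldhb fell by 1.26 ± 0.36 in EpiLC KO against WT (edgeR adjusted p = 0.0345) and by 1.35 ± 0.36 in the KO transition (0.00657), while the WT transition gave -0.43 ± 0.354 (0.327) and naive KO -0.34 ± 0.354 (0.613). The EpiLC call ended without EpiLC WT replicate 1 (adjusted p = 0.104) or 3 (0.0795), or EpiLC KO replicate 1 (0.132) or 2 (0.0942). Without naive WT replicate 2 the WT transition passed as a fall (-0.81, 0.0206). The Ldha to Ldhb ratio was 0.461, 0.985 and 0.367 in naive WT, 0.642, 0.480 and 0.508 in naive KO, 4.01, 2.75 and 3.31 in EpiLC WT, against 9.06, 7.05 and 4.40 in EpiLC KO, so each EpiLC KO library had a higher share of the A gene than any EpiLC WT library.

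Of the 2 carriers of lactate, Slc16a3 had the highest rise of all members in the transition and Slc16a1 a smaller one. Slc16a3 (MCT4, an exporter of lactate, ENSMUSG00000025161.16, chr11:120948480-120960868) had 1.14, 0.904 and 1.1 RPKM in naive WT, then 116, 95.1 and 91.5 in EpiLC WT. KO went from 1.32, 1.23 and 0.659 to 64.6, 79.1 and 67.7 RPKM, with the EpiLC KO libraries all below the EpiLC WT ones. The rises were 6.59 ± 0.245 and 6.04 ± 0.239 (edgeR adjusted p of 1.5e-09 and 2.35e-09), the highest of the 36 members in each genotype. The EpiLC difference of -0.52 ± 0.189 did not pass (0.0834), but did in a fit of the EpiLC groups only (-0.50, 0.0357) and without naive KO replicate 3 (-0.51, 0.016). It also passed without the filter on low counts (-0.54, 0.00442). Naive KO differed by 0.03 ± 0.214 (0.954).

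Slc16a1 (MCT1), which carries lactate either way, had 26.4, 33.6 and 32.8 RPKM in naive WT, 26.7, 26.5 and 18.3 in naive KO, 47.7, 49.5 and 50.5 in EpiLC WT, against 44.1, 36.1 and 34.2 in EpiLC KO. It rose in both transitions (0.67 ± 0.15 and 0.68 ± 0.15). Its KO differences were -0.38 ± 0.15 and -0.37 ± 0.15 (edgeR adjusted p of 0.142 and 0.119), and both passed once a trend with GC content was removed (-0.53, 0.0244, and -0.60, 0.0104). In naive cells Slc16a1 exceeded Slc16a3 per kilobase by ratios of 20.2 to 37 over the 6 libraries, and in EpiLCs the ratio was 0.410 to 0.683, with the genotypes overlapping in both conditions.

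**Figure D4:**
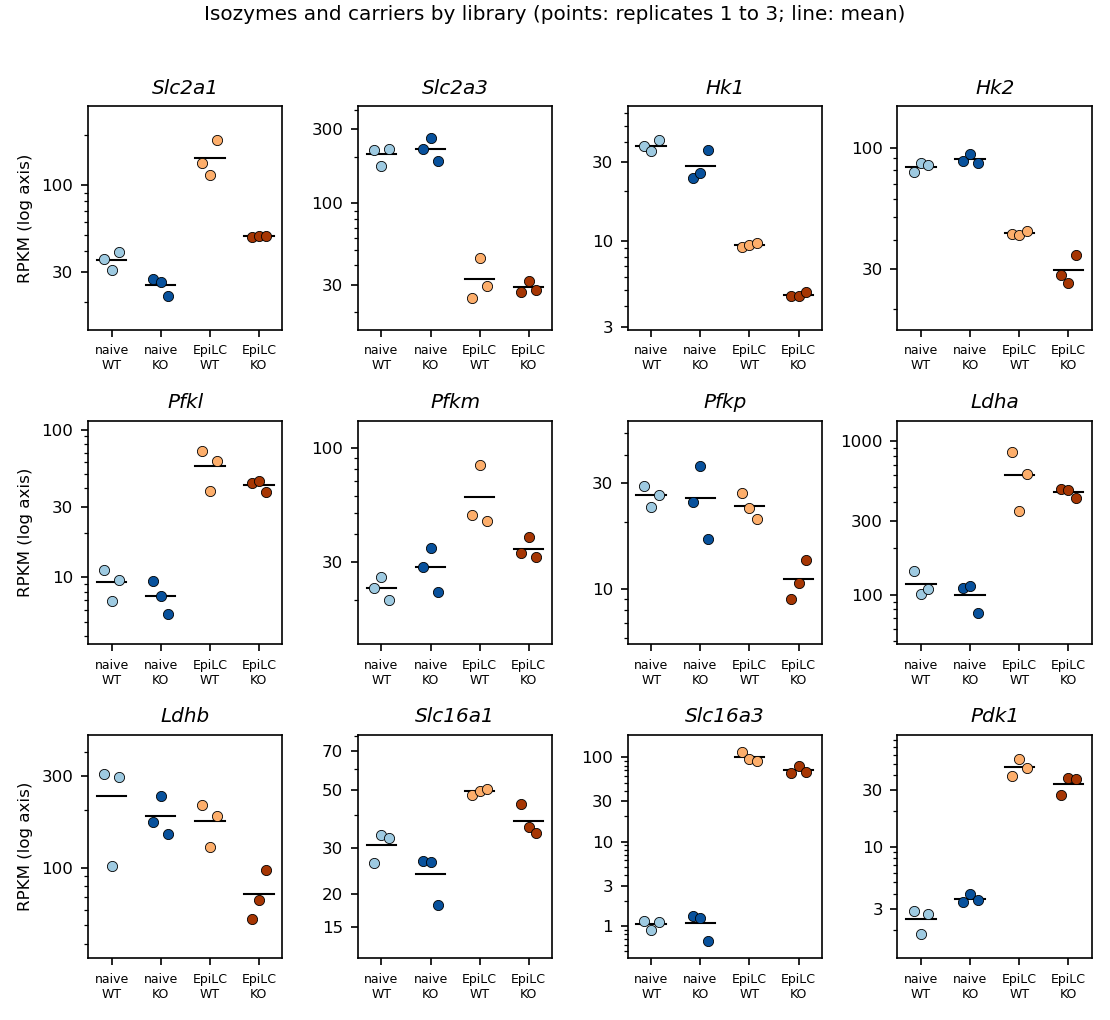
RPKM (vertical axes, log scale, each with its own range) of 12 transporters and isozymes in the 12 libraries; points are replicates 1 to 3 of a group and lines the group means. Slc2a1 separates all 4 groups, Hk1 and Hk2 drop in EpiLCs and lie lower in EpiLC KO, and Ldhb and Pfkp are lowest in EpiLC KO, at means of 73.1 and 11 RPKM.

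The pyruvate dehydrogenase complex feeds pyruvate into the citric acid cycle, and 3 of its 4 inhibitory kinases are members. Pdk1, a textbook target of hypoxia signalling (ENSMUSG00000006494.11, chr2:71873224-71903858), had 2.86, 1.83 and 2.69 RPKM in naive WT, against 3.4, 4.03 and 3.53 in naive KO. In EpiLCs it had 39.3, 55.1 and 45.9 RPKM in WT and 27.3, 37.9 and 37 in KO. KO lay above WT in naive cells and below it in EpiLCs, with no overlap either time. Neither difference passed (0.57 ± 0.182 and -0.46 ± 0.176, edgeR adjusted p of 0.0701 and 0.1), but both did without the filter on low counts (0.57, 0.00361, and -0.47, 0.0139). The rises in the transition were 4.25 ± 0.202 in WT and 3.22 ± 0.193 in KO (1.06e-08 and 5.84e-08). Their difference of -1.03 ± 0.253 did not pass in edgeR (0.118). It passed in DESeq2 (-1.01, 0.0262) and in edgeR without the filter (-1.05, 0.000406).

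Pdk2, a broadly expressed kinase, was low, at 2.51, 1.73 and 2.28 RPKM in naive WT, 1.14, 1.39 and 1.27 in naive KO, 2.27, 1.61 and 2.26 in EpiLC WT, against 1.63, 1.69 and 1.15 in EpiLC KO. Its naive difference of -0.78 ± 0.231 missed the threshold (edgeR adjusted p = 0.0539) and passed in DESeq2 (-0.79, 0.00888), and the EpiLC difference was -0.46 ± 0.23 (0.202). It did not pass in either transition (-0.09 ± 0.229 and 0.23 ± 0.231). Pdk3 rose in both transitions (0.68 ± 0.114 and 0.56 ± 0.114) from 13.3, 11.9 and 14.4 to 21.2, 18.6 and 23.4 RPKM in WT and from 11.8, 11.1 and 11.5 to 16, 17 and 17.9 in KO. KO libraries of Pdk3 were below WT libraries in both conditions, and the differences of -0.20 ± 0.114 and -0.31 ± 0.113 did not pass (0.322 and 0.0842). The Pdk1 to Pdk2 ratio was 1.14, 1.05 and 1.18 in naive WT, against 2.98, 2.89 and 2.76 in naive KO, tight in each group and apart between them. In EpiLCs it was 17.3, 34.2 and 20.3 in WT and 16.7, 22.4 and 32.1 in KO, which overlap.

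The core subunits moved less. Pdhb, the E1 beta subunit (ENSMUSG00000021748.9, chr14:8165996-8173025), had 37, 46.4 and 40.5 RPKM in naive WT, 37.8, 42 and 35.6 in naive KO, 35.7, 41.5 and 34.6 in EpiLC WT, against 25.6, 27.8 and 27.9 in EpiLC KO. It fell by 0.46 ± 0.109 in EpiLC KO against WT (edgeR adjusted p = 0.015) and by 0.51 ± 0.109 in the KO transition (0.00164), and the first call ended without EpiLC KO replicate 1 (-0.42, 0.0645). Naive KO differed by -0.10 ± 0.109 (0.621) and the WT transition gave -0.15 ± 0.109 (0.274). The 41 tested genes around Pdhb went the other way, with medians of 0.58, 0.11 and 0.17 in the EpiLC KO libraries. Pdha1, the E1 alpha subunit, fell in both transitions (0.52 ± 0.139 and 0.75 ± 0.139 lower) without a passing KO difference (-0.03 ± 0.138 and -0.26 ± 0.138, 0.924 and 0.224). Dlat, the E2 subunit, passed in none of the comparisons and stayed between 18.2 and 20.8 RPKM over the 12 libraries.

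The pentose phosphate pathway held the only members that passed in both comparisons of genotypes. G6pdx, glucose-6-phosphate dehydrogenase, the entry enzyme and first NADPH source (ENSMUSG00000031400.10, chrX:74409483-74429194), had 34.6, 27.7 and 33.3 RPKM in naive WT, against 20.6, 21 and 21.9 in naive KO. In EpiLCs it had 70.6, 62.6 and 64.3 RPKM in WT and 34, 33.4 and 30.3 in KO. KO libraries lay below WT libraries in both conditions and varied little among themselves. G6pdx fell by 0.59 ± 0.1 in naive KO (edgeR adjusted p = 0.0035) and by 1.01 ± 0.1 in EpiLC KO (0.000137), and rose in the transition by 1.05 ± 0.1 in WT and 0.62 ± 0.1 in KO. The difference between the genotype effects was -0.42 ± 0.141 and did not pass (0.227). Of its exons 13.6% overlap those of Ikbkg on the other strand.

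Pgd, phosphogluconate dehydrogenase, the second NADPH source (ENSMUSG00000028961.15, chr4:149149991-149166771), had 68.7, 59.7 and 55.6 RPKM in naive WT, against 32.7, 31.8 and 42 in naive KO. EpiLC levels were 72, 77.8 and 53.6 RPKM in WT and 24.9, 28.5 and 31.1 in KO, again without overlap. It fell by 0.79 ± 0.152 in naive KO and by 1.27 ± 0.154 in EpiLC KO (edgeR adjusted p of 0.00769 and 0.000396), with an interaction of -0.48 ± 0.214 (0.386). The transition gave 0.15 ± 0.151 in WT and -0.33 ± 0.152 in KO. Pgls, the lactonase between these dehydrogenases, did not share their fall: its KO differences were 0.18 ± 0.178 and 0.18 ± 0.177 (0.604 and 0.539), with levels of 7.02 to 9.59 RPKM in naive WT, 9.02 to 10.4 in naive KO, 11.5 to 17.6 in EpiLC WT and 13 to 18.7 in EpiLC KO. It rose in both transitions (0.78 ± 0.179 and 0.79 ± 0.178).

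Transketolase and transaldolase exchange carbon units between pentoses and glycolytic sugars. Tkt (chr14:30548359-30574720) had 94.5, 90.4 and 84.3 RPKM in naive WT, 74.4, 81.5 and 67.3 in naive KO, 158, 149 and 136 in EpiLC WT, against 101, 105 and 104 in EpiLC KO. KO libraries were lower in both conditions. It fell by 0.51 ± 0.0892 in EpiLC KO (edgeR adjusted p = 0.0032), and the naive difference of -0.27 ± 0.089 did not pass (0.0796) except in DESeq2 (-0.28, 0.0444) and without naive KO replicate 2 (-0.37, 0.0395). It rose in both transitions (0.72 ± 0.0894 and 0.47 ± 0.0891).

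Tktl2, a transketolase-like gene (ENSMUSG00000025519.5, chr8:66511756-66518335), was the one member that rose in KO. It had 49, 91 and 91 reads in naive WT, against 587, 558 and 342 in naive KO, and 25, 41 and 33 in EpiLC WT, against 753, 436 and 490 in EpiLC KO. Per kilobase this was 0.414 ± 0.122 and 2.61 ± 0.643 RPKM in naive WT and KO, and 0.198 ± 0.0772 and 2.55 ± 0.522 in EpiLC WT and KO (SD, n = 3). The lowest KO library was above the highest WT library in both conditions. Tktl2 rose by 2.65 ± 0.32 in naive KO (edgeR adjusted p = 0.000457) and by 3.71 ± 0.343 in EpiLC KO (9.06e-05), with an interaction of 1.05 ± 0.446 (0.358). Its 50 neighbours had median log2 differences of 0.48, 0.28 and 0.38 in the EpiLC KO libraries and 0.20, 0.23 and -0.02 in the naive ones. Tkt stayed the main gene of the pair: the Tkt to Tktl2 ratio was 331, 172 and 193 in naive WT, 23.7, 29.1 and 35.6 in naive KO, 1283, 533 and 679 in EpiLC WT, against 32.5, 50.7 and 41.8 in EpiLC KO.

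Taldo1, transaldolase (chr7:141392199-141402968), had 155, 141 and 133 RPKM in naive WT, 113, 123 and 121 in naive KO, 145, 127 and 110.3 in EpiLC WT, against 86.8, 98.7 and 103 in EpiLC KO, lower in KO without overlap both times. It fell by 0.41 ± 0.109 in EpiLC KO (edgeR adjusted p = 0.0263), a call that ended without EpiLC WT replicate 1 (-0.31, 0.0901) or KO replicate 1 (-0.34, 0.109) or 2 (-0.43, 0.0568). It also ended under scaling by library size, in a fit of the EpiLC groups and with a GC trend removed (0.053, 0.0796 and 0.0594). The naive difference was -0.26 ± 0.109 (0.162). Rpia, which makes ribose-5-phosphate, had KO differences of -0.28 ± 0.152 and -0.42 ± 0.152 (0.3 and 0.0836), with KO libraries below WT libraries in both conditions. The EpiLC difference of Rpia passed in DESeq2 (-0.41, 0.0345). Rpe, the epimerase, had differences of -0.01 ± 0.136 and 0.17 ± 0.137 (0.983 and 0.427) and fell in both transitions (0.78 ± 0.137 and 0.59 ± 0.137 lower).

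**Figure D5:**
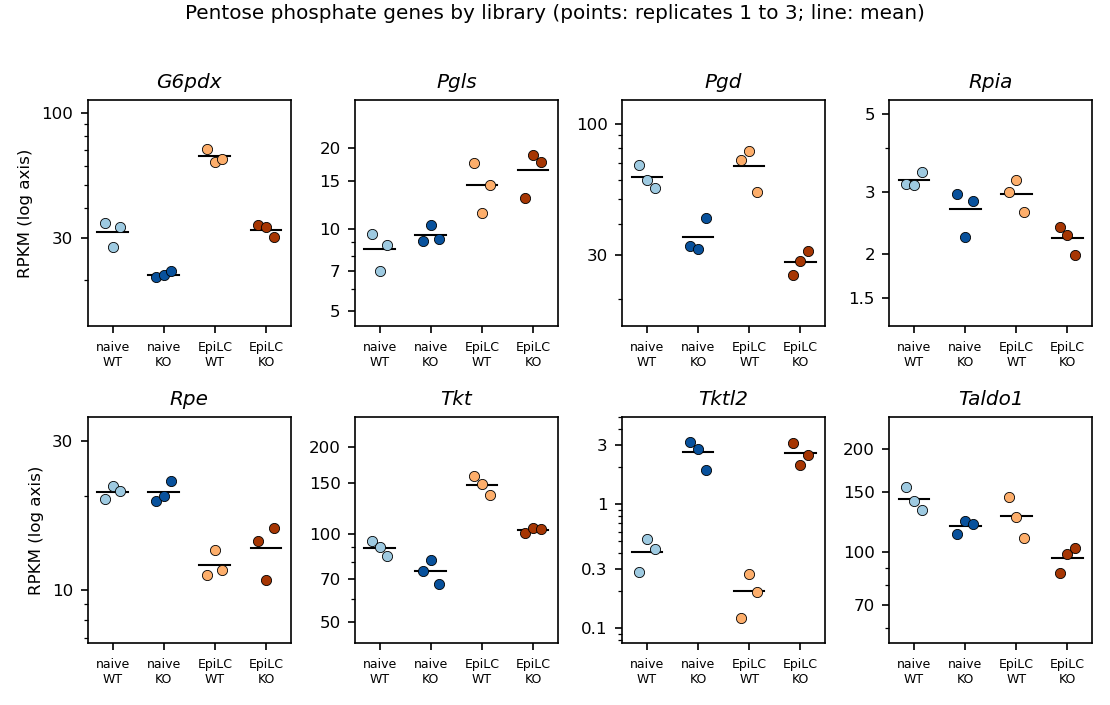
RPKM (vertical axes, log scale, each with its own range) of the 8 pentose phosphate members in the 12 libraries; points are replicates 1 to 3 of a group and lines the group means. KO lies below WT in both conditions for G6pdx, Pgd, Tkt, Taldo1 and Rpia, above it for Tktl2 (2.61 against 0.414 RPKM in naive cells), and overlaps it for Pgls and Rpe.

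Whether the genotype effect differed between the conditions was tested by the interaction. No member passed in edgeR, where 0.381% of all genes did. At an unadjusted p under 0.05 there were 1 higher and 13 lower members, where 6.19% of all genes were higher and 6.14% lower. DESeq2 called 0 members higher and 5 lower (Slc2a1, Hk2, Pfkm, Aldoc and Pdk1), where it called 1.6% of its genes higher and 1.11% lower. The members' median was -0.32, beside -0.01 over all genes. With the clone as a block, Slc2a1 (-1.03, adjusted p = 0.0205) and Pfkm (-1.04, 0.0369) passed, against -1.06 ± 0.222 (0.0704) and -1.10 ± 0.306 (0.159) without it. Over all genes that block gave 92 lower and 136 higher calls, against 22 and 47 without it. Slc2a1 passed without EpiLC WT replicate 2 (-1.20, 0.0191) and Hk2 without EpiLC KO replicate 3 (-0.76, 0.0346). Those fits called 54 of 18869 and 8 of 18687 genes lower.

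Genes around the pathway, from lists of related isozymes, regulators and neighbouring steps, moved in both directions in EpiLC KO against WT, where 7.22% of all genes tested rose and 7.86% fell. Of 25 other isozymes and carriers, 16 were tested and 3 fell: Ldhd, a D-lactate dehydrogenase (-1.88 ± 0.398, edgeR adjusted p = 0.00859), Slc2a8, a glucose transporter (-0.88 ± 0.158, 0.00381), and Pgam2, the muscle phosphoglycerate mutase (-1.34 ± 0.318, 0.0152). None rose, and their median was -0.29. Of 17 regulators of glycolysis 3 rose and 3 fell, with a median of -0.16. The 3 that rose, named after their values were seen, were Hif1a (0.45 ± 0.135), Pfkfb2 (0.59 ± 0.175) and Fbp1 (1.25 ± 0.383), with adjusted p of 0.0434, 0.0393 and 0.0454. The 3 that fell were Txnip and Arrdc4, arrestin-type brakes on glucose uptake (-1.64 ± 0.379 and -1.30 ± 0.222, 0.0136 and 0.00293), and Arnt, the partner of the hypoxia-inducible factors (-0.44 ± 0.102, 0.0139). Of 15 genes of pyruvate entry and exit 13 were tested, of which 1 rose and 2 fell, with a median of 0.01. Pck2, mitochondrial phosphoenolpyruvate carboxykinase, went from 121 to 22.7 CPM (-2.41 ± 0.382, 0.00189), and Pdha2, the testis form of E1 alpha, from 1.82 to 8.61 CPM (2.23 ± 0.476, 0.00907). Pdhx, a structural subunit of the complex, fell by 0.30 ± 0.0917 (0.047).

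Of 9 other pentose phosphate genes 7 were tested: Tktl1, another transketolase-like gene, rose (1.25 ± 0.23, edgeR adjusted p = 0.00427) and Prps1, which makes phosphoribosyl pyrophosphate, fell (-0.43 ± 0.1, 0.0146). H6pd, the glucose-6-phosphate dehydrogenase of the endoplasmic reticulum, fell in naive KO from 34.5 to 14.9 CPM (-1.21 ± 0.156, 0.000706) and had -0.42 ± 0.153 in EpiLC KO (0.0864). Of 17 hypoxia-induced genes outside glycolysis 6 fell and 1 rose in EpiLC KO, where 7.86% and 7.22% of all genes did, with a median of -0.15. Vegfa, an angiogenic factor, went from 57.2 to 16 CPM (-1.84 ± 0.285, 0.00164), Ndrg1 changed by -1.36 ± 0.256 (0.00479) and Egln3, a prolyl hydroxylase, by -0.80 ± 0.178 (0.0114). The other 4 that passed, named after their values were seen, were Adm (-2.09), Car9 (-1.35), Bhlhe40 (-0.77) and Fam162a (0.92). In the WT transition 9 of these 17 rose and 3 fell, where 26.4% and 26.3% of all genes did. In naive KO, where 4.95% of all genes fell and 4.27% rose, the calls in the 5 lists were these: Pgam2 (-1.11), Arnt (-0.35), Me2 (-0.55), H6pd, Egln3 (-1.68) and Car9 (-1.87) fell and Pdpr (0.59) rose. None of the 5 lists had a member that passed the interaction.

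Markers of cell state were measured beside these results. The summed level of 10 naive pluripotency markers was 4663 to 5029 CPM in the 6 naive libraries, 233 to 774 in EpiLC WT and 272 to 400.0 in EpiLC KO, and that of 9 formative or primed markers 3324 to 5698 CPM in EpiLC WT and 4048 to 4202 in EpiLC KO. None of these markers passed between EpiLC KO and WT, and neither did the 4 shared pluripotency markers, at 1241 to 1616 and 1605 to 1774 CPM. Of 14 markers of primitive and visceral endoderm 11 were tested and 9 rose in EpiLC KO, with a summed level of 27.4 to 53.8 CPM in WT and 102 to 141 in KO. In EpiLC WT 1 of the 14 was at 0 in all libraries and 8 had means under 1 CPM, against 0 and 4 in EpiLC KO. In naive cells 1 of the 11 rose, Col4a1 (1.56 ± 0.315, edgeR adjusted p = 0.00948), the naive sum was mostly Lama1 (means of 261 and 431 CPM in WT and KO, adjusted p = 0.198), and 10 and 11 of the 14 had means under 1 CPM. In EpiLCs its most abundant genes were Lama1 and Col4a1, which encode basement membrane proteins, with means of 6.88 and 19.1 CPM in WT and 41 and 33.7 in KO. Summed markers of fibroblasts or feeders were 8.89 to 18 CPM in EpiLC WT and 18 to 32.6 in EpiLC KO, those of primitive streak and mesoderm 6.72 to 11.4 and 14.8 to 20.8, of neuroectoderm 15.6 to 39.7 and 27.8 to 51.6, and of trophoblast 89.9 to 109 and 33.8 to 42. In naive cells the trophoblast sum was 82.6 to 105 CPM in WT and 96.8 to 123 in KO, and 2 of its 5 tested genes, Krt8 (-1.71) and Krt18 (-1.49), fell. Their part in the differences of the pathway was not tested.

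Chromosome 6 carries 7 members (Slc2a3, Hk2, Tpi1, Gapdh, Eno2, Ldhb and Rpia), more than any other, and chromosomes 7, 11 and X carry 4 each. Tpi1, Gapdh and Eno2 lie within chr6:124760053-125166467, and their 50 tested neighbours had medians of -0.23 to -0.33 in the EpiLC KO libraries. Ldhb, further along the chromosome, had neighbours at 0.19, 0.09 and 0.24. Members were somewhat richer in G and C (median 53.4%) than all genes (50%), and log2 fold change in EpiLC KO against WT had a Spearman correlation of -0.333 with GC content across 18111 genes, given as a description since genes are not independent. With that trend removed 16 members fell and 1 rose, of which 15 were among the 17 called without the correction. Over all 18134 genes 1353 fell and 1204 rose with the trend removed.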

How the data were processed

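RNA-seq of 12 libraries (3 each of WT and KO in naive and in EpiLC culture) was deposited by the authors as 1 table of raw counts per gene. Per the labels' protocols, RNA was extracted with Trizol and libraries were made with a TruSeq Stranded mRNA kit. Counting used featureCounts 2.0.1 with GENCODE vM25, per the file headers, on build GRCm38, and the submitters' processing notes name fastp, FastQC, STAR and DESeq2. The header shows no strand or multi-mapping option, and a stranded kit counted without strand cannot tell a gene from one on the other strand. Counts ran from 27146744 to 42204511 a library, and no column was left unmapped.

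The members and lists were chosen with earlier results of these data known. Counts were fitted with edgeR 4.0.16 (limma 3.58.1, R 4.3.3): TMM scaling, filterByExpr with a minimum count of 10 and a minimum total of 15, glmQLFit and glmQLFTest over all 12 libraries with 8 residual degrees of freedom, and Benjamini-Hochberg adjustment over 18134 genes. The SE is the log2 fold change divided by the square root of F. The p-values of KO against WT rest on the spread between clones within a group, pooled over the groups. Those of the transitions and the interaction treat the 12 libraries as independent. They leave out the pairing of naive and EpiLC libraries by clone, except where the clone was a block. RPKM used the summed exon length in the table. Ratios of members were tested in Python 3.11.15 with SciPy 1.17.1 by two-sided exact permutation, with a pseudocount of 0.5 counts. Neighbour values are medians of the log2 CPM difference from the mean WT library over 25 tested genes on each side, or fewer near a chromosome end (41 in all for Pdhb and Pfkp, 43 for Slc16a3). Of these steps, only the edgeR fit was tested on simulated counts, for EpiLC KO against WT and with independent libraries.

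Every member is accounted for; values in every library are given for members called between genotypes and for both members of a described ratio; beyond the members up to 3 genes of a list with the smallest adjusted p in EpiLC KO against WT are named. The lists were other isozymes and carriers, control of glycolysis, pyruvate entry and exit, other pentose phosphate genes, hypoxia-induced genes, and markers of 8 cell states or types.

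Within a genotype, naive and EpiLC libraries with the same number deviated together from their group means (r = 0.145 to 0.264 in 6 pairs, each above 0.1), so the number was taken to mark a clone. Between genotypes, libraries with the same number did not (r = -0.266 to 0.00374). Libraries with different numbers gave r = -0.248 to 0.0483 within a genotype across conditions. Between genotypes, where no clone is shared, they gave -0.143 to 0.287. An r as large as those of the 6 pairs thus also arose without a shared clone, and the labels do not state the pairing. Alternatives were DESeq2 1.42.0, other scalings, no filter, the compared groups alone, each library left out, and blocks by clone or number. Removal of a GC trend and the principal transcript's length were added after seeing the data.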

Additional observations from a re-analysis of the deposited data

Results flagged for a closer look

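The log2 ratio of Aldoa to Aldoc moved in opposite directions between genotypes in the 2 culture conditions. It was lower in all naive KO libraries than in the naive WT libraries, by a mean difference of -0.25, and higher in all EpiLC KO libraries than in the EpiLC WT libraries, by 0.90. The difference between the conditions was not tested. EpiLC KO replicate 3 stood highest, with a ratio of 482 beside 162 and 157 in the other EpiLC KO libraries, and the EpiLC difference without it was 0.37. The naive difference without naive WT replicate 2 was -0.15.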

How the results depend on the processing

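No member that passed changed direction under any alternative. RLE scaling gave the same counts of calls. In naive KO against WT, where 1 rose and 2 fell, DESeq2 gave 5 falls, and the fit without a filter on low counts gave 2 rises and 5 falls. Over all genes 898 of 18134 fell in the main fit and 1323 of 22504 in DESeq2. Without the filter 1158 of 36121 genes fell and 1161 rose. Leaving out 1 library gave 2 to 5 falls of members and 353 to 1140 over all genes. In EpiLC KO against WT, where 16 fell, there were 18 falls in DESeq2 and 25 without the filter. Over all genes 1425 of 18134 fell in the main fit, 1781 of 21824 in DESeq2 and 1637 of 36121 without the filter. With 1 library left out 10 to 19 members fell, with 10 without EpiLC KO replicate 1, and 705 to 1525 of all genes fell. The interaction, with 0 falls, had 5 in DESeq2, 8 without the filter and 0 to 1 with 1 library left out (WT replicate 2 or KO replicate 3 of the EpiLCs). Over all genes it had 22 falls in the main fit, 204 of 18421 in DESeq2 and 239 of 36121 without the filter. With 1 library left out it had 1 to 54 over all genes. Without the filter the added calls in naive KO were Pdk1, higher, and Slc2a1, Hk1 and Tpi1, lower. In EpiLC KO they were Gpi1, Pfkl, Tpi1, Gapdh, Eno1, Pkm, Slc16a1, Slc16a3 and Pdk1, all lower. The causes were not tested.

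With the clone as a replicate block, pairing naive and EpiLC libraries, 2 members fell in the interaction (Slc2a1 and Pfkm) in place of 0. Over all genes 92 fell and 136 rose in it, in place of 22 and 47. The clone block added Gpi1 to the WT transition and Aldoc and Pgd to the KO transition, and ended no call there. It was not run for KO against WT, whose groups share no clone. With the replicate number as a block, 15 members fell in EpiLC KO against WT, since Pgk1 did not pass, and Hk1 passed in naive cells (-0.42, adjusted p = 0.0383). Over all genes 1338 fell in EpiLC KO and 864 in naive KO with that block. Eno2 had the lowest counts, 18 to 85 reads, and Tktl2 had 25 to 91 in WT, so counting error weighs most on these members.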
